A study of Mus musculus with 6 samples.

Results

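The EGF family and the neuregulins are the ligands of the ErbB receptors, and 10 of their genes were taken by name in ureteric bud cells of E15.5 mouse kidneys: Nrg1, Nrg2, Nrg3, Nrg4, Egf, Areg, Hbegf, Tgfa, Ereg and Btc. A gene was measured where a probe set carried its symbol alone, and for genes with several such probe sets the one with the highest mean over the 6 arrays was to be kept. The members were thus chosen by name, and the one measured value in the rule, the mean signal, decided between probe sets. Of the 10 genes, 9 had a probe set and each had exactly 1, so the mean signal decided nothing here. They are 9 of 19296 genes measured in this way. Areg, the amphiregulin gene, was not analysed here. The family was picked with earlier results of these arrays known, in which Nrg3 stood among the largest falls, so the counts and p-values below describe the family and are no independent evidence about it.

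RNA was hybridised to Affymetrix whole-transcript arrays, 3 of Dicer mutant cells and 3 of control cells, all from mice of a mixed strain background at stage E15.5. The mutant genotype is Dicerc/-; Hoxb7Cre; Rosa26YFP: Hoxb7Cre, a transgene active in the ureteric bud, recombines the conditional Dicer allele, the other Dicer allele is null, and the Rosa26YFP reporter marks cells that had Cre. Control kidneys are labelled wild type. Control cells were sorted as YFP-positive too, after trypsin treatment, but the labels do not say that they had the Cre or the reporter. An effect of Cre therefore cannot be told apart from that of Dicer loss. The labels call the samples biological replicates without saying how many embryos each took, and the p-values rest on the spread among them, which may be partly technical.

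ErbB ligands share an EGF-like domain held by cysteine bonds, and most are made as membrane-bound precursors that proteases release. Ligand binding pairs the receptors EGFR, ERBB2, ERBB3 and ERBB4 and starts signalling through Ras and ERK and through PI3 kinase. Egf and Tgfa products bind EGFR, those of Hbegf, Btc and Ereg bind EGFR and ERBB4, those of Nrg1 and Nrg2 bind ERBB3 and ERBB4, and those of Nrg3 and Nrg4 bind ERBB4. In the ureteric bud, EGFR ligands are known as growth signals that act beside GDNF and Ret, and ERBB4 is known for roles in the growth and polarity of renal tubule cells.

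Expression is given as RMA values in log2 units, where 1 unit is a 2-fold difference, and a fold change is the mutant minus the control mean on that scale. The median of all probe sets, 7.51, serves only to call a signal bright or dim, because the table holds no detection call and signals of different probe sets do not rank transcripts by amount. A gene is called where limma's adjusted p (Benjamini-Hochberg over all 19296 genes) was under 0.05. The targeted gene, Dicer1, was at 66.3% of the control signal (log2 fold change -0.59 ± 0.06 SE, adjusted p = 0.0005). This whole-transcript signal does not measure how much working Dicer remained. Of 10 markers of the ureteric epithelium all lay above the median of all probe sets, and 5 of them were called lower (Krt8, Gata3, Hoxb7, Ret and Wnt11), 1 higher (Wnt9b) and 4 neither way. Of the markers of other cells, 1 of 6 stromal, 1 of 6 distal tubule, 0 of 5 endothelial, 0 of 5 immune and 0 of 3 measured neural and glial genes lay above it, as did 3 of 6 cap mesenchyme and 5 of 6 urothelial genes.

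Ligand transcripts were lower in the Dicer mutant cells or did not pass the test, and 0 of the 9 rose. Nrg3, Nrg1, Btc, Tgfa and Hbegf fell, and Nrg2, Nrg4, Egf and Ereg did not pass. The falls were of unequal size: Nrg3, Nrg1 and Btc lay at 37.0%, 52.8% and 60.0% of the control signal, while Tgfa and Hbegf lay at 84.5% and 85.0%. In these bulk samples, fewer cells that make a transcript and less of it per cell cannot be told apart. The 5 lower genes stand against 13.9% of all genes called lower (25.8% called in either direction). Among genes above the median of all probe sets 20.3% were called lower (39.6% in either direction), and 4 of the 9 ligands belong there: Nrg3, Btc, Tgfa and Hbegf. The median log2 fold change of the 9 ligands was -0.23, beside -0.05 over all genes. On the 5 called genes the mutant and control arrays did not overlap, as was also the case, with the mutant lower, for 24.1% of all genes.

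**Figure D1:**
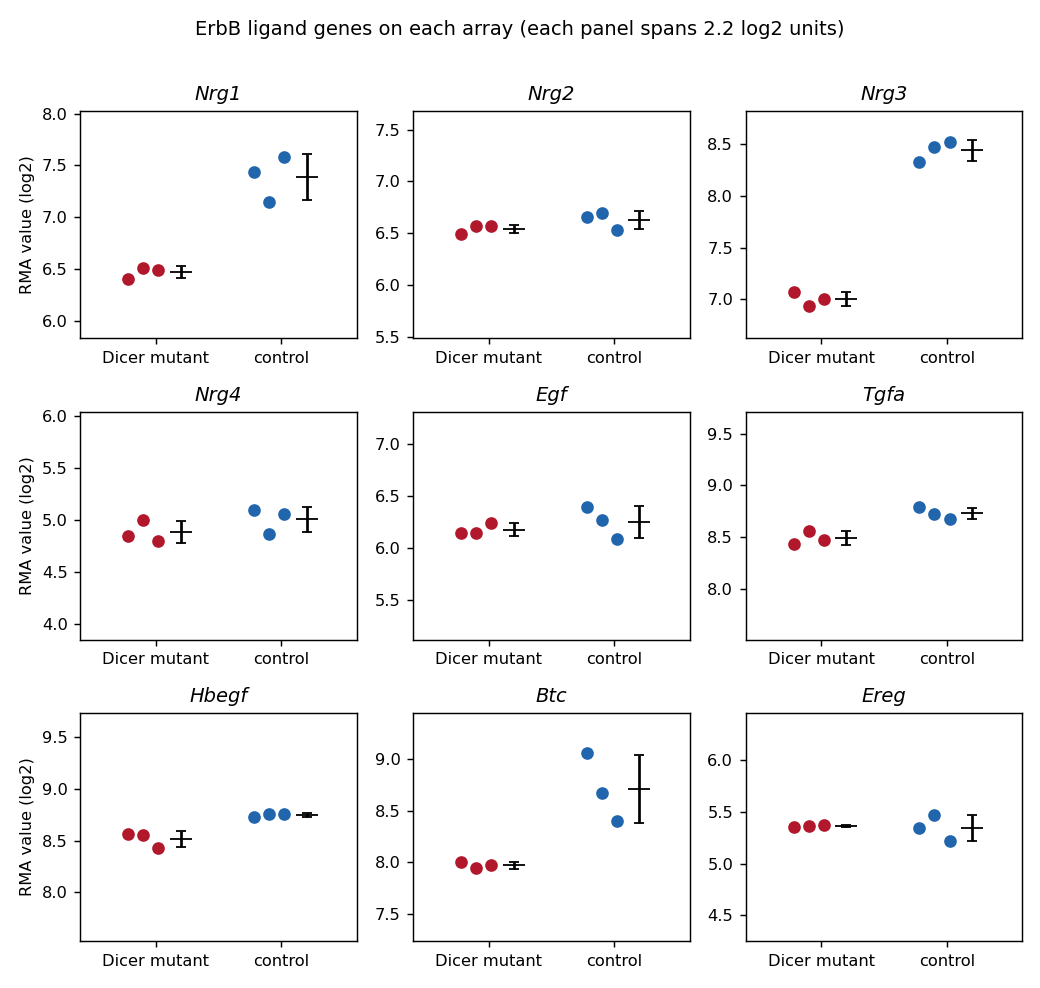
RMA value (log2, vertical axis) of each of the 9 measured ligand genes on each array, with the 3 Dicer mutant arrays in red at left and the 3 control arrays in blue at right of each panel. Black marks give the mean and SD (n = 3). The groups are apart for Nrg1, Nrg3, Tgfa, Hbegf and Btc and overlap for Nrg2, Nrg4, Egf and Ereg. Every panel spans the same number of log2 units, so distances can be compared between panels but heights cannot.

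Promoters are shown for 3 of the 5 ligands that fell, from the RefSeq promoter table (GRCm38.p6). They were chosen because these genes moved in the same direction on the same arrays. That table had no entry for Nrg1, and the promoter of Hbegf was not analysed here. Each stretch runs 5′ to 3′ on the gene's strand and ends just before the outermost annotated start of the gene, so it is shorter where the table's window begins close to it. Capitals mark CG dinucleotides. The Nrg3 stretch is chr14:39473236-39473338 (minus strand), the Btc stretch chr5:91402995-91403244 (minus strand) and the Tgfa stretch chr6:86194972-86195037 (plus strand).
Nrg3: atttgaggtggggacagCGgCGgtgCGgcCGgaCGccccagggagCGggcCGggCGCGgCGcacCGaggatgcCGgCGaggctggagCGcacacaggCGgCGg
Btc: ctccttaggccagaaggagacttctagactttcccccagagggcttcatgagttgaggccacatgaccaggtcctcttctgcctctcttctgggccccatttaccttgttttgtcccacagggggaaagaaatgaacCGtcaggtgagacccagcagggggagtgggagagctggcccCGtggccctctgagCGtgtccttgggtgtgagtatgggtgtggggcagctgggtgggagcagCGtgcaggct
Tgfa: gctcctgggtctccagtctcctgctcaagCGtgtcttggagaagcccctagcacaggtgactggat
The promoters differed in base composition. In the table's full window, from 250 bases before to 50 after a start, Nrg3 held 36 CG dinucleotides, more than 93.8% of 32851 windows, Tgfa held 24, more than 80% of them, and Btc held 5, below the median of 7. Neither Nrg3 nor Btc held any of 4 motifs searched on both strands: TATAAA (the TATA box), GGGCGG (the GC box), CCAAT and TGANTCA (an AP-1 site). Tgfa held GGGCGG at 2 positions. Of all windows, 13.6% held TATAAA, 35.7% GGGCGG, 37.4% CCAAT and 7.81% TGANTCA, and a match describes letters only.

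Among the neuregulins, 2 of 4 fell. Nrg3 (probe set 10419049), which is best known from the nervous system and the mammary bud and whose product binds ERBB4, had values of 7.07, 6.94 and 7.01 on the mutant arrays, against 8.33, 8.47 and 8.52 on the control arrays. All mutant arrays lay below 7.51 and all control arrays above it. The means were 7.01 ± 0.07 in mutant cells and 8.44 ± 0.10 in control cells (SD, n = 3 each). The log2 fold change was -1.43 (95% interval -1.60 to -1.27, limma adjusted p = 2.23e-05). Only 12 of the 19296 genes had a lower fold change. Permuting the 6 arrays exactly between groups gave a two-sided p = 0.1 for this gene and for each of the other 4 ligands that fell, the smallest that this design allows.

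Nrg1 (10578045), the neuregulin that drives heart and Schwann cell development through ERBB3, ERBB4 and ERBB2, had values of 6.40, 6.51 and 6.49 in mutant cells, against 7.44, 7.15 and 7.58 in control cells. The mutant arrays were close together and the control arrays spread more, with SDs of 0.06 and 0.22. The log2 fold change was -0.92 (95% interval -1.17 to -0.68, limma adjusted p = 0.000658). Both group means, 6.47 in mutant and 7.39 in control cells, were below 7.51, the median of all probe sets, and RMA compresses changes of dim signals. Nrg1 and Nrg3 have several isoforms with starts of their own, which 1 value per gene does not separate.

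Nrg2 and Nrg4 did not pass. Nrg2 (10458323), a close relative of Nrg1 found in brain and other tissues, had values of 6.49, 6.57 and 6.57 in mutant cells, against 6.66, 6.69 and 6.53 in control cells. Its log2 fold change was -0.08 (95% interval -0.23 to 0.06, limma adjusted p = 0.373). Nrg4 (10593776), known as a factor secreted by brown fat, had values of 4.85, 5.002 and 4.80 in mutant cells, against 5.10, 4.86 and 5.05 in control cells. Nrg4 had a log2 fold change of -0.12 (95% interval -0.31 to 0.07, limma adjusted p = 0.328). The groups overlapped for both genes, and both were dim on every array. No detection call says whether these signals exceeded background.

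Of the 5 measured EGFR ligands, Btc, Tgfa and Hbegf fell. Btc (10531274) encodes betacellulin, a ligand of EGFR and ERBB4 first known from pancreatic beta cell tumours. It had values of 8.01, 7.94 and 7.97 in mutant cells, against 9.06, 8.67 and 8.40 in control cells. The mutant arrays lay within 0.1 of each other, whereas control replicate 1 was far above control replicate 3, and the SDs were 0.03 and 0.33. The log2 fold change was -0.74 (95% interval -1.07 to -0.40, limma adjusted p = 0.00756). It was -0.56 without control replicate 1 and -0.89 without control replicate 3, and Btc was called in all 13 alternative fits, with adjusted p from 0.00165 to 0.0326.

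Tgfa (10539692), whose product TGF-alpha binds EGFR and whose loss gives mice wavy hair, had values of 8.43, 8.56 and 8.47 in mutant cells, against 8.79, 8.72 and 8.68 in control cells. The closest arrays of the groups were about as far apart as arrays within a group, and the log2 fold change was -0.24 (95% interval -0.38 to -0.10, limma adjusted p = 0.0214). Hbegf (10458340), which encodes heparin-binding EGF and is quickly induced by stress and by growth factors, had values of 8.57, 8.55 and 8.43 in mutant cells, against 8.73, 8.76 and 8.76 in control cells. Its control arrays were nearly equal, with an SD of 0.02. The log2 fold change was -0.23 (95% interval -0.37 to -0.10, limma adjusted p = 0.0216). Both calls were lost in some fits with 1 array left out, which also rest on fewer arrays. Tgfa did not pass without mutant replicate 1 (limma adjusted p = 0.091), mutant replicate 3 (0.0691), control replicate 1 (0.0599) or control replicate 2 (0.0537), in a range of 0.00508 to 0.091 over 13 alternatives. Hbegf did not pass without mutant replicate 3 (limma adjusted p = 0.0747) or control replicate 2 (0.059), in a range of 0.00499 to 0.0747. Without mutant replicate 3 or without control replicate 2, 3 of the ligands were therefore called, in place of 5.

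Egf (10502105), in the adult kidney a product of the thick ascending limb and distal tubule, did not pass. Its values were 6.14, 6.15 and 6.24 in mutant cells, against 6.39, 6.27 and 6.09 in control cells, and the groups overlapped. The log2 fold change was -0.07 (95% interval -0.27 to 0.12, limma adjusted p = 0.564), and under quantile normalization its sign turned (0.013). Of 6 genes of that tubule segment 0 passed, and Umod and Slc12a1, which define it, had mean signals of 5.81 and 5.72 in mutant cells and of 5.69 and 5.52 in control cells, all below the median of all probe sets. Pou3f3 of the same list was bright, with 10.02 in mutant and 10.17 in control cells; its mutant arrays lay below all control arrays, but it did not pass (limma adjusted p = 0.0774).

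Ereg (10523175), the epiregulin gene, known for its induction in the ovary and in wounded epithelia, was the only ligand with a fold change above 0, of 0.02 (95% interval -0.14 to 0.18, limma adjusted p = 0.855). Its values were 5.36, 5.36 and 5.37 in mutant cells, against 5.35, 5.47 and 5.22 in control cells, with the mutant arrays inside the range of the control arrays. Epgn, the epigen gene, is a further EGFR ligand outside the 10 genes. It had mean signals of 4.71 in mutant and 4.66 in control cells and did not pass (log2 fold change 0.05, limma adjusted p = 0.588).

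On chromosome 5, Btc lies beside other ligand genes. In the RefSeq gene table, Epgn, Ereg, Areg and Btc lie in this order on chromosome 5 with no other protein-coding gene among them. Btc fell, Ereg and Epgn did not pass, and Areg was not analysed here. On the outer side of Btc, Parm1 had a log2 fold change of -0.19 (limma adjusted p = 0.175), and beyond Epgn, Mthfd2l had one of 0.27 (adjusted p = 0.0191). Whether the change of Btc differed from that of its neighbours was not tested.

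The receptors moved both ways: 1 of 4 rose, 1 fell and 2 did not pass. All 4 lay above the median of all probe sets, where 39.6% of genes were called in either direction. Erbb4, the receptor shared by the neuregulins and by Btc, Hbegf and Ereg, had values of 8.34, 8.79 and 8.68 in mutant cells, against 7.98, 7.26 and 7.62 in control cells. Every mutant array lay above every control array, as for 18.3% of all genes. The log2 fold change was 0.98 (95% interval 0.56 to 1.41, limma adjusted p = 0.00583), a 1.98-fold rise, with 11.8% of all genes called higher. Erbb2, the co-receptor that binds no ligand of its own, had values of 10.28, 10.31 and 10.32 in mutant cells, against 10.60, 10.51 and 10.56 in control cells. It fell by 0.25 on the log2 scale (limma adjusted p = 0.0103).

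Egfr, the receptor of the EGF-like ligands, had values of 8.91, 8.76 and 8.88 in mutant cells, against 8.69, 8.69 and 8.63 in control cells. The arrays did not overlap, yet its log2 fold change of 0.18 did not pass (limma adjusted p = 0.0656). It passed in 5 of 13 alternatives, with adjusted p from 0.0204 to 0.22 and the same direction in all of them, and without mutant replicate 2 it was one of them (adjusted p = 0.0486). Erbb3, the partner of ERBB2 with little kinase activity, had mean signals of 10.88 in mutant and 10.84 in control cells. Its log2 fold change was 0.04 (95% interval -0.11 to 0.19, limma adjusted p = 0.708), and it turned to -0.015 without control replicate 1.

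**Figure D2:**
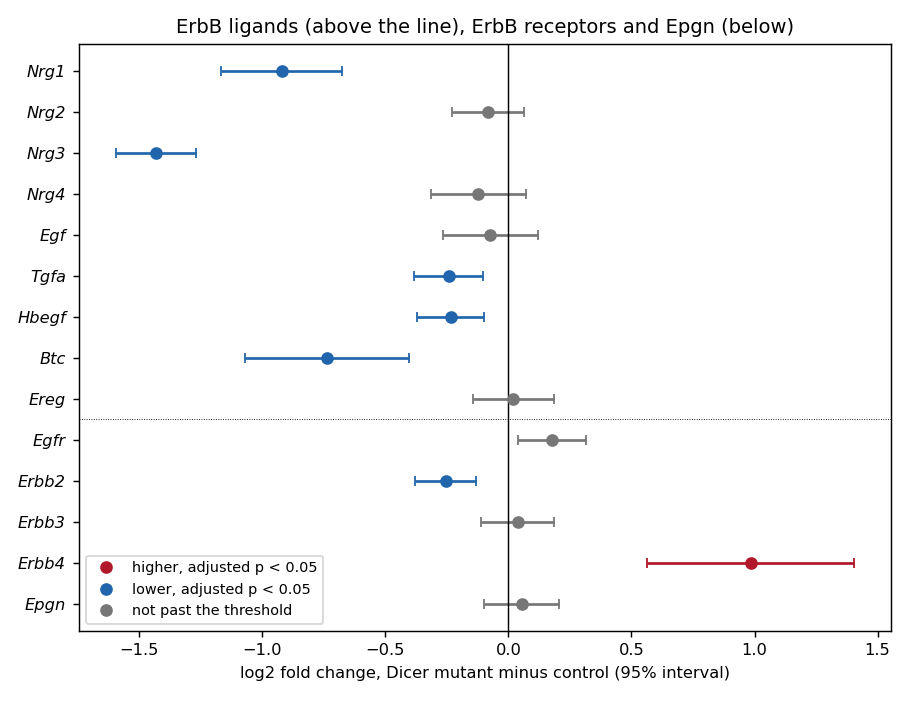
Log2 fold change (mutant minus control, horizontal axis) with its 95% interval from limma for the 9 measured ligands, the 4 ErbB receptors and Epgn. Red marks genes called higher, blue marks genes called lower, and grey marks genes that did not pass an adjusted p of 0.05. Nrg3 lies farthest to the left at -1.43 and Erbb4 farthest to the right at 0.98.

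Proteases and carriers that release the ligands were mostly higher. Of 9 genes, 6 rose, 1 fell and 2 did not pass, beside 11.8% of all genes called higher and 13.9% called lower. The median log2 fold change of the 9 was 0.23. Above the median of all probe sets, where 6 of the 9 lay, 39.6% of genes were called in either direction. Adam19, a protease that can shed neuregulin, had values of 7.07, 7.30 and 7.12 in mutant cells, against 6.64, 6.43 and 6.44 in control cells. The log2 fold change of Adam19 was 0.66 (limma adjusted p = 0.0011). Its signal was dim, with means of 7.16 in mutant and 6.51 in control cells, both below the median of all probe sets. Rhbdf1, an inactive rhomboid that helps ADAM17 mature, and the protease Adam9 had log2 fold changes of 0.47 and 0.43. The main ligand sheddases Adam10 and Adam17 had fold changes of 0.38 and 0.23, and Bace1, which cleaves NRG1 in nerve, was the gene that fell, by 0.30. These 3 genes were chosen after their values were seen. Adam17 did not pass without mutant replicate 2 (limma adjusted p = 0.0601) or with the replicate number as a block (0.0636; range 0.00116 to 0.0636 over the alternatives). Bace1 did not pass without mutant replicate 1 or 3 or without control replicate 1 or 3, with adjusted p of 0.0883, 0.0983, 0.0861 and 0.0701, or with the replicate number as a block (0.0784; range 0.00398 to 0.0983).

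Genes listed as inhibitors of the receptors or as part of their turnover moved both ways. Of 9 genes, 4 rose, 2 fell and 3 did not pass. All 9 lay above the median of all probe sets, where 39.6% of genes were called in either direction. Lrig1, a membrane protein that lowers ErbB levels, had values of 8.57, 8.64 and 8.46 in mutant cells, against 9.27, 9.15 and 9.38 in control cells, with a log2 fold change of -0.71 (limma adjusted p = 0.000541). Its relatives Lrig3 and Lrig2 had fold changes of 0.56 and 0.46, so members of 1 family differed in sign. They were listed as relatives of Lrig1, and whether they restrain the receptors was not tested. Rnf41, the ubiquitin ligase of ERBB3, was the other gene that fell, by 0.28, and was named after its value was seen.

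Downstream, 3 of 6 measured adaptor and Ras genes rose and 3 did not pass, beside 11.8% of all genes called higher. All 6 lay above the median of all probe sets, where 39.6% of genes were called in either direction. The adaptor genes that rose were Sos2, Sos1 and Gab1, with log2 fold changes of 0.50, 0.42 and 0.34. SOS proteins load Ras with GTP, and GAB1 is a docking protein for PI3 kinase. Genes of the ERK response and its feedback were mostly lower: 9 of 16 fell, 1 rose and 6 did not pass, with a median log2 fold change of -0.40. Of the 16, 15 lay above the median of all probe sets, where 20.3% of genes were called lower. Etv4, an ETS factor of the ureteric tip, had values of 9.48, 9.67 and 9.43 in mutant cells, against 10.42, 10.15 and 10.37 in control cells. Fold changes on the log2 scale were -0.79 for Etv4, -0.57 for the feedback inhibitor Spry4 and -0.43 for Etv5, and Ccnd1, named after its value was seen, was the gene that rose, by 0.28. In the ureteric tip these genes also lie downstream of Ret, whose own signal fell to 11.83 in mutant cells, against 12.17 in control cells (log2 fold change -0.35, limma adjusted p = 0.00258), and its part in these falls was not tested.

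**Figure D3:**
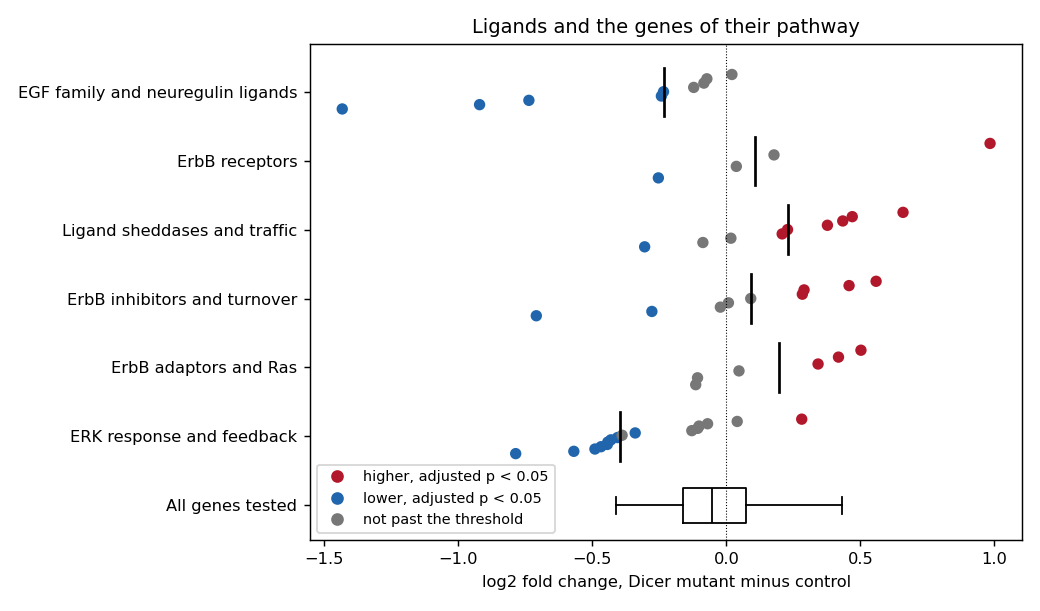
Log2 fold change (mutant minus control, horizontal axis) of each measured gene in the ligand family and in 5 lists of its pathway. Points are genes, red where called higher, blue where called lower and grey where not past an adjusted p of 0.05, and black bars are list medians. The box at the bottom gives the median and quartiles of all 19296 genes, with whiskers at the 5th and 95th percentiles. The ligands have a median of -0.23, the sheddases one of 0.23 and the ERK response genes one of -0.40.

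Markers of the ureteric epithelium itself moved both ways: 5 of 10 fell, 1 rose and 4 did not pass. All 10 lay above the median of all probe sets, where 20.3% of genes were called lower, beside 13.9% of all genes. On 8 of the 10, and on 24.1% of all genes, the mutant arrays lay below all control arrays. The log2 fold changes of Wnt11 and Hoxb7 were -0.60 and -0.40, and that of Wnt9b, the gene that rose, was 1.42. The summed signal of the 10 on the linear scale was 33124 to 33986 on mutant arrays, against 37099 to 37559 on control arrays. Markers of urothelium, the lining of the pelvis and ureter, fell in 5 of 6 genes, beside the same 20.3% and 13.9%, and 1 did not pass. Their summed signal was 883 to 1121 on mutant arrays, against 1751 to 2646 on control arrays, and 5 of the 6 lay above the median of all probe sets. Endothelial markers passed in 0 of 5 genes, with a summed signal of 390 to 550 on mutant arrays, against 460 to 664 on control arrays. Of 5 immune markers all had fold changes below 0 and Ptprc fell, with a summed signal of 301 to 312 on mutant arrays, against 318 to 359 on control arrays. Of 3 neural and glial markers Tubb3 rose and 2 did not pass, with a summed signal of 285 to 296 on mutant arrays, against 227 to 251 on control arrays. Of 6 stromal markers 0 passed. Of 6 cap mesenchyme markers, Six2 rose, Osr1 fell and 4 did not pass. One of those 4, Cited1, was higher on every mutant array than on any control array, as were 18.3% of all genes. Its log2 fold change was 0.27 (limma adjusted p = 0.0503), beside -0.67 for Osr1. The summed signal of the 6 markers was 1994 to 2119 on mutant arrays, against 914 to 993 on control arrays. Without Six2, left out after its value was seen, the sum was 725 to 766 on mutant arrays, against 759 to 865 on control arrays. That sum joins the fall of Osr1 and the higher signal of Cited1. The part of any of these cell types in the falls of the ligands was not tested.

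For each ligand that fell, the 3 genes with the most similar pattern over the 6 arrays were found by the root mean square distance between log2 values centred on each gene's mean. Nearest to Nrg3 were Cpne8, a calcium-binding copine, at a distance of 0.07, Aldh1a7, an aldehyde dehydrogenase, at 0.09 and Lgr5, the R-spondin receptor, at 0.11. The log2 fold changes of these genes were -1.32, -1.36 and -1.32, beside -1.43 for Nrg3. Nearest to Nrg1 were Lrrn1 at 0.05, Tomm5 at 0.07 and Zfp663 at 0.08, with log2 fold changes of -0.90, -0.88 and -0.80.

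Btc had Gpd1, a glycerol phosphate dehydrogenase, at 0.08, Tafa5 at 0.09 and Olfr963 at 0.10, all with control SDs of 0.20 or more. The genes nearest to Tgfa (Pja1, Sys1 and Tspan9) and to Hbegf (Cyhr1, Cuedc1 and Trp53i11) lay within 0.02 of them, and their fold changes ran from -0.26 to -0.22. None of these 15 genes belongs to the ligand family, and the likeness describes 6 arrays that differ mainly by genotype.

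The pattern of the ligands over the alternative fits was uneven. Nrg3, Nrg1 and Btc passed in every alternative that measured them, with log2 fold changes of -1.49 to -1.39 for Nrg3, -1.04 to -0.82 for Nrg1 and -0.89 to -0.56 for Btc. Tgfa and Hbegf stayed below 0 in all 13 alternatives but passed in 8 and 10 of them. Nrg2, Nrg4, Egf and Ereg passed in none.

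**Figure D4:**
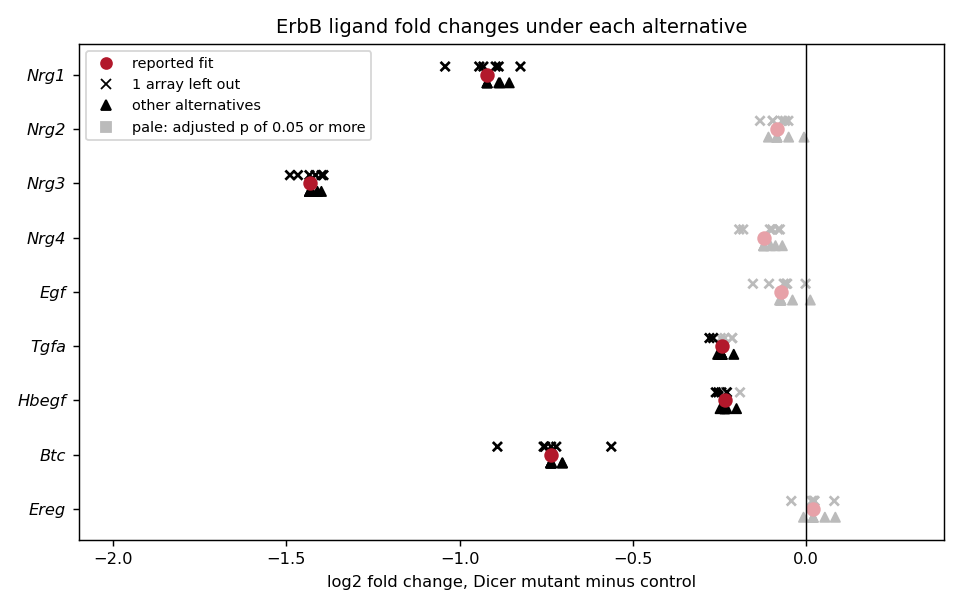
Log2 fold change (mutant minus control, horizontal axis) of each measured ligand in the reported fit (circles), with 1 array left out (crosses) and under the other alternatives (triangles). Pale symbols have an adjusted p of 0.05 or more. Nrg3, Nrg1 and Btc keep full colour throughout, while Tgfa and Hbegf have pale symbols and Nrg2, Nrg4, Egf and Ereg have no others.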

How the data were processed

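The authors deposited 1 RMA value per probe set and array in log2 units, from Affymetrix whole-transcript arrays. Per the submitters' processing notes the tools were RMA and affy; no version, filter or genome build was found in the labels used. RMA forces arrays to a common distribution, so a shift of most transcripts would be removed. Values between 2.26 and 14.11 fit log2 units.

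Of 23309 probe sets, 20728 carried a single symbol in the platform's annotation, 1174 carried several and 1407 were unlisted. Only the first kind was used, the brightest per gene, giving 19296 genes without an intensity filter. Genotype was the sole term in limma 3.58.1 (R 4.3.3, lmFit and eBayes), two-sided, with Benjamini-Hochberg adjustment over all genes. The fit was tested on simulated data. Array medians were 7.47 to 7.54, Pearson's r across probe sets was 0.996 to 0.998 for arrays of 1 group and 0.988 to 0.992 across groups, and 2 arrays shared at most 22 identical values. The number of arrays limits the precision. The labels name no batch.

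Members, lists and rules were chosen with earlier results of these data known. The text names all members, the receptors, Epgn, Dicer1, up to 3 called genes per other pathway list by smallest p, and the 3 nearest patterns of each called member. Other pathway genes are said to be chosen after their values were seen. So were the cell type markers and chromosome 5 neighbours that are named. Alternatives were a block for the replicate number, leaving out single arrays, quantile normalization, centring on array medians, dropping dim genes (both group means under the median of all probe sets), averaging the probe sets of a gene, eBayes with a trend and robust, and array weights. Promoters are from RefSeq (GRCm38.p6). Figures were drawn with matplotlib 3.10.9.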

Additional observations from a re-analysis of the deposited data

How the results depend on the processing

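Of 112 member values under alternatives, 101 kept their direction and their side of the threshold. Same-numbered arrays of both groups did not deviate together (correlations of deviations -0.19, -0.10 and -0.22), which gave no sign of pairing by number. With 3 arrays a group, this check cannot exclude a shared litter or day. With the replicate number as a block, 3 members passed in place of 5, Hbegf (-0.23, adjusted p = 0.07) and Tgfa (-0.24, adjusted p = 0.0689) being lost, as were Adam17 (adjusted p = 0.0636) and Bace1 (0.0784), and 1725 genes were higher and 1878 lower. With 1 array left out, the number of members called ran from 3 to 5, Hbegf from -0.26 to -0.19, Tgfa from -0.28 to -0.21, Egf from -0.15 to -0.00091 and Ereg from -0.042 to 0.082, where Ereg turned without control replicate 3. Ereg also turned with array weights (-0.0069) and Egf under quantile normalization (0.013). Erbb3 ran from -0.015 to 0.079. With 1 array left out, all genes lower in the mutant numbered 1764 (without mutant replicate 1) to 2973, against 2690 in the reported fit. Leaving out dim genes removed Nrg1, Nrg2, Nrg4, Egf, Ereg and Epgn from the test, by construction, and all 4 remaining ligands passed. Between 2 and 3 of the receptors passed under every alternative, Egfr being the gene that entered. Centring on the median moved the median fold change of all genes from -0.05 to -0.02 and changed no member's call, but gave 2696 genes higher and 2241 lower, against 2285 and 2690 (54.6% against 45.9% of called genes higher). The cause of the other changes was not tested. With 3 arrays a group and no detection call, changes of the dim ligands Nrg2, Nrg4, Egf and Ereg are only bounded by their intervals.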
